A study of Homo sapiens with 6 samples.

Results

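The genes described are 10 of the 60612 gene rows in the count table, chosen by name: the transcription factor genes SNAI1, SNAI2, ZEB1, ZEB2, TWIST1 and TWIST2, the cadherin genes CDH1 and CDH2, VIM (vimentin) and FN1 (fibronectin). All 10 were found by symbol, and 8 had enough counts to be tested. RNA was sequenced from U251, an established human glioma cell line, in 3 control libraries (labelled Normal Control) and 3 libraries labelled TEAD3 Knockdown. TEAD3 encodes a DNA-binding factor at the output of the Hippo pathway. Both groups are the same line grown in the same medium with serum. Cells were transfected transiently; a plasmid vector and an siRNA are both mentioned, and what controls received is not given in the sources used here. These labels do not say that replicates came from separate cultures, and p-values therefore cover only library-to-library spread, possibly technical.

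Epithelial-mesenchymal transition is a programme in which cells lose junctions and gain motility. SNAI and ZEB proteins are zinc-finger repressors and TWIST proteins are basic helix-loop-helix factors, and all bind short E-box sequences, among others in the promoter of CDH1, the gene of the epithelial adhesion protein E-cadherin. A shift from E-cadherin to N-cadherin, the product of CDH2, is called the cadherin switch, and vimentin filaments and fibronectin matrix are its usual companions. Glial cells are not epithelial, and in glioma the same factors are studied as regulators of invasion and of the mesenchymal state.

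None of the 8 tested genes was called after the knockdown by the test used here, edgeR's quasi-likelihood F test over 17723 genes with Benjamini-Hochberg adjustment, in which a gene is called at an adjusted p under 0.05. Of all genes tested 0.655% were called. VIM was the member with the smallest p: its level was lower in every knockdown library than in every control, with a fitted fold of 0.820, and it was not called. CDH2 and FN1 also had log2 fold changes below 0, ZEB1 and SNAI2 had log2 fold changes above 0, and all 4 overlapped between groups. CDH1 was low but above the floor of detection in all 6 libraries, and SNAI1 and TWIST2 were near or at that floor in both groups.

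Total counts lay between 58344026 and 64808615 per library. A count of 3, taken as the floor of detection, corresponds to 0.0463 to 0.0514 CPM (counts scaled to a common library total). Levels given below are TMM-normalised CPM, a slightly different scale. This floor covers counting error only. The targeted gene was lower in each knockdown library: TEAD3 was at 14.9, 20.3 and 21.0 CPM in controls 1 to 3 and at 4.70, 8.35 and 6.08 CPM in knockdown 1 to 3 (log2 fold change -1.55, SE 0.218, edgeR adjusted p = 0.0114). Its call was lost without control replicate 3 or knockdown replicate 1 or 3 (edgeR adjusted p of 0.0541, 0.0532 and 0.0938). Libraries differed by base composition and by transcript length. Control replicate 2 had the highest Spearman correlation, 0.557, between its deviations and the GC content of 13690 protein-coding genes. Control replicate 1 had the lowest, -0.447, and the other libraries lay between -0.175 and 0.141. With transcript length the correlation was 0.223, -0.0932 and 0.205 in controls 1 to 3. It was -0.244, -0.0892 and -0.0415 in knockdown 1 to 3, so the groups overlapped only through control 2. Of 10 glioma or astrocyte marker genes 7 reached 1 CPM in some library, among them NES, SOX2 and CD44, while OLIG2 had no counts, AQP4 and S100B stayed under 1 CPM in every library and GFAP was at 1.46 ± 0.298 CPM in controls. Among leukocyte markers CD3E had no counts and PTPRC 0 to 8 per library, while CD68, a lysosomal glycoprotein gene, averaged 137 ± 15.8 and 131 ± 11.1 CPM (control and knockdown) and CSF1R 0.747 ± 0.192 and 0.846 ± 0.0724 CPM. Of 6 fibroblast or mural markers LUM had no counts and COL1A2 was at 1211 ± 167 CPM.

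Promoter windows of 6 of the 10 genes were found in the RefSeq table on GRCh38.p14, with 13 start sites. SNAI1, SNAI2, TWIST1 and CDH1 had none. The windows run from 250 bases before to 50 bases after the start. They were searched on both strands for 4 motifs of 6 letters. The first is the E-box CAGGTG, which reads CACCTG on the other strand and is the form bound by SNAI and ZEB proteins. The second is the E-box CATATG, which reads the same on both strands. The third is the E-box CATCTG, whose other strand reads CAGATG. The fourth is the TEAD form GGAATG, whose other strand reads CATTCC. No match overlaps another in the windows shown. The first form stood in 2 of the 13 windows, both of ZEB1, against 20.6% of all 35116 windows in the table. The second stood in none, against 3.04% of all windows. The third stood in 2 windows, 1 of ZEB1 and 1 of CDH2, against 14.7%, and the TEAD form in 1 window, of ZEB1, against 14.0%. The sequences below are the ZEB1 window that held the TEAD letters, the VIM window, because VIM had the smallest p, and the window at the upstream start of CDH2, because CDH2 was the more abundant of CDH1 and CDH2. Each is printed to 30 bases from the start on, with matches in capitals. In the ZEB1 window the matches begin 234 and 57 bases before the start (E-boxes) and at the last base before it (TEAD letters). A match is a description of the letters, not evidence of binding.
ZEB1, chr10:31318167-31318446, plus strand: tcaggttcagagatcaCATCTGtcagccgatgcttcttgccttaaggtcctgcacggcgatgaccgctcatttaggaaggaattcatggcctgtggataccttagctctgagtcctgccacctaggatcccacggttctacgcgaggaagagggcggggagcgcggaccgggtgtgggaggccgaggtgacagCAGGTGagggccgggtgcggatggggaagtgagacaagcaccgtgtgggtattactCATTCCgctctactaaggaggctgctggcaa
VIM, chr10:17227991-17228270, plus strand: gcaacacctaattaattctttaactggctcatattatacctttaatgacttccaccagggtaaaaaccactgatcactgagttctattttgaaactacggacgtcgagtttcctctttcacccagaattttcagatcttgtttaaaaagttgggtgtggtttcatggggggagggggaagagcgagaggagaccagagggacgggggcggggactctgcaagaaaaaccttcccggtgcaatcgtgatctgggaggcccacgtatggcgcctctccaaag
CDH2, chr18:28177101-28177380, minus strand: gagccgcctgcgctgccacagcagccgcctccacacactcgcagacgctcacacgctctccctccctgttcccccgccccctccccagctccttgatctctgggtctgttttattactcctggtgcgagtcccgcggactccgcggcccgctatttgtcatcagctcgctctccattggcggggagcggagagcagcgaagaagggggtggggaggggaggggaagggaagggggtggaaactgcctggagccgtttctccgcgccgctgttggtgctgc

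Levels of the 10 genes differed widely. Compared per length, as CPM per kilobase of the longest annotated transcript, VIM was at 1682 ± 117 in controls (SD, n = 3), CDH2 at 14.9 ± 1.56, FN1 at 8.30 ± 0.965, TWIST1 at 3.46 ± 0.550, ZEB2 at 3.00 ± 0.727, ZEB1 at 2.62 ± 0.686, SNAI2 at 2.33 ± 0.757 and CDH1 at 0.117 ± 0.0357. The ranges of VIM, CDH2 and FN1 did not overlap in controls, and CDH1 lay below all of the transcription factor genes that were tested. TWIST1, ZEB2, ZEB1 and SNAI2 overlapped as neighbours in this order. With the union of annotated exons as length their order became TWIST1, SNAI2, ZEB1 and ZEB2, so no order among them is read. SNAI1 and TWIST2 were the lowest.

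**Figure D1:**
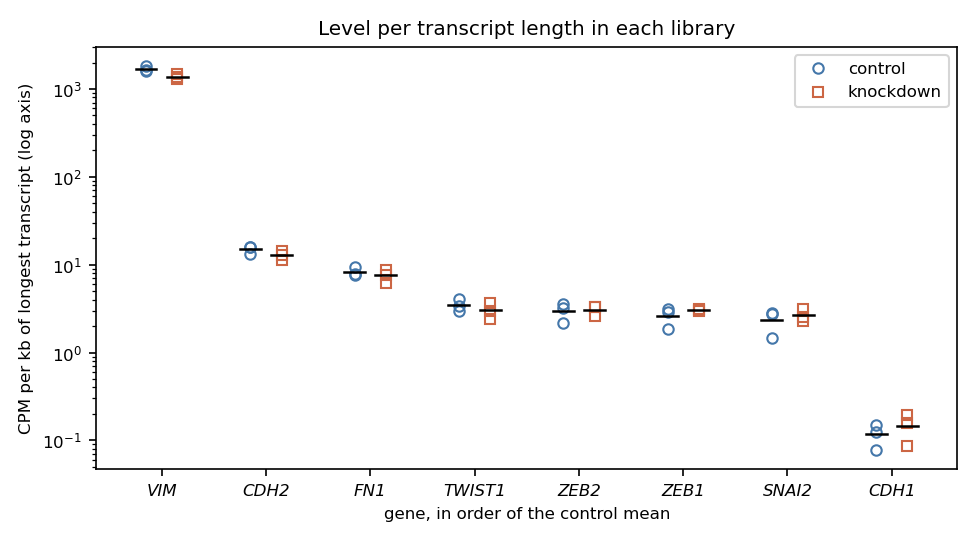
Level of each tested gene per kilobase of its longest annotated transcript (log axis) in 3 control (circles) and 3 knockdown (squares) libraries, with group means as bars. VIM stands alone at over 1000, CDH2 and FN1 follow, the transcription factor genes lie together and CDH1 is lowest.

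SNAI1 (ENSG00000124216, GRCh38 chromosome 20, 49982999 to 49988886, plus strand) encodes Snail, a direct repressor of CDH1. It had 0, 4 and 0 counts in controls 1 to 3 and 0, 4 and 7 in knockdown 1 to 3, so 3 of the 6 libraries had none and no library was far above the floor. No fold change is given. SNAI2 (ENSG00000019549, chromosome 8, 48917604 to 48921740, minus strand) encodes Slug, its paralog. SNAI2 was at 7.71, 4.11 and 7.91 CPM in controls 1 to 3 and at 7.16, 6.51 and 8.89 CPM in the knockdown. Control 2 was the lowest library and the other 5 overlapped. The log2 fold change was 0.19 (SE 0.25, edgeR adjusted p = 0.776), and the 95% interval of the fold ran from 0.781 to 1.67. Without control replicate 2 the log2 fold change was -0.06 (edgeR adjusted p = 0.906), and it lay between 0.05 and 0.35 with each other library left out.

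ZEB1 (ENSG00000148516, chromosome 10, 31318495 to 31529814, plus strand) and ZEB2 (ENSG00000169554, chromosome 2, 144364364 to 144524583, minus strand) encode the paralogous repressors that form a mutual inhibition loop with the miR-200 family. ZEB1 was at 18.1, 11.5 and 19.7 CPM in controls 1 to 3 and at 19.2, 18.7 and 19.7 CPM in knockdown 1 to 3. The knockdown libraries lay close together, and control 2 was again the lowest. The log2 fold change was 0.23 (SE 0.18, edgeR adjusted p = 0.599; fold interval 0.889 to 1.54), with 0.03 without control replicate 2 (edgeR adjusted p = 0.931). Leaving out control replicate 3 gave 0.38. ZEB2 was at 34.4, 21.0 and 30.9 CPM in controls 1 to 3 and at 25.02, 31.7 and 31.8 CPM in the knockdown. Control 2 was lowest here too, followed by knockdown 1. Its log2 fold change was 0.03 (SE 0.18, edgeR adjusted p = 0.961; fold interval 0.783 to 1.34), and it turned below 0 without control replicate 2 (-0.15), knockdown replicate 2 (-0.02) or knockdown replicate 3 (-0.02).

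In control 2 SNAI2, ZEB1, ZEB2 and TWIST1 lay below the lower quartile of genes with like GC content. Set against the mean of controls 1 and 3 on the log2 scale, control 2 differed by -0.93 for SNAI2, -0.71 for ZEB1 and -0.64 for ZEB2. The longest transcripts of these genes hold 41.4%, 38.5% and 39.1% GC, and protein-coding genes within 1 percentage point of them differed by medians of -0.24, -0.27 and -0.27 (1243, 1028 and 1114 genes). The lower quartiles of those genes were -0.37, -0.41 and -0.40, so SNAI2, ZEB1 and ZEB2 lay below them. TWIST1, at 57.2% GC, differed by -0.33 where its 820 neighbours had a median of 0.24 and a lower quartile of 0.096. CDH1 went the other way, at 0.57 against an upper quartile of 0.14, and CDH2, VIM and FN1 lay within the quartiles of their neighbours. A correction for transcript length and GC content left the log2 fold changes at 0.19 for SNAI2, 0.23 for ZEB1 and 0.05 for ZEB2, none of them called. What set these genes low in control 2 was not tested.

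**Figure D2:**
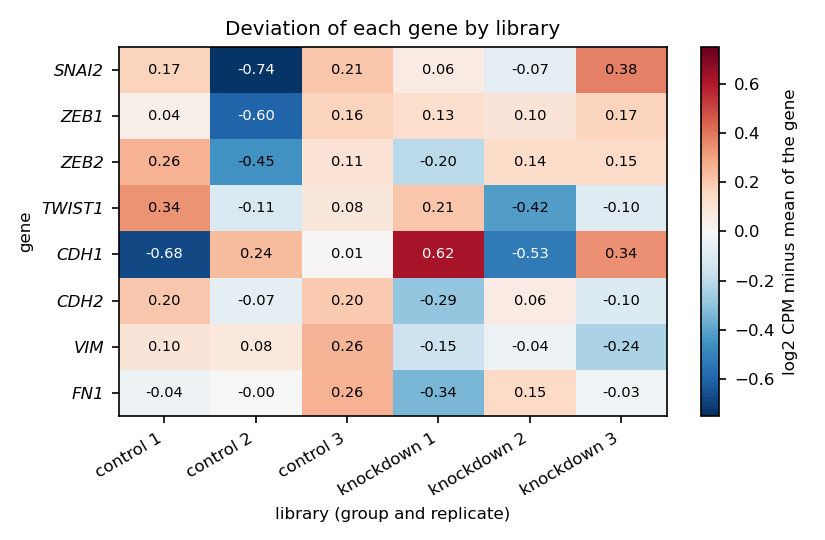
Deviation of log2 CPM from the mean of each gene over the 6 libraries (columns) for the 8 tested genes (rows), red above and blue below the mean. SNAI2, ZEB1 and ZEB2 are lowest in control 2, at -0.74, -0.60 and -0.45, and VIM is above its mean in every control and below it in every knockdown library.

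TWIST1 (ENSG00000122691, chromosome 7, 19020991 to 19117672, minus strand) and TWIST2 (ENSG00000233608, chromosome 2, 238848032 to 238910543, plus strand) encode paralogous factors that pair with E proteins. TWIST1 was at 6.74, 4.92 and 5.64 CPM in controls 1 to 3 and at 6.15, 3.98 and 4.98 CPM in knockdown 1 to 3. The groups overlapped, with knockdown 2 lowest and control 1 highest. The log2 fold change was -0.20 (SE 0.217, edgeR adjusted p = 0.728), and the interval of the fold ran from 0.627 to 1.22. This log2 change was -0.05 without knockdown replicate 2, -0.07 without control replicate 1, -0.30 without control replicate 2 and -0.36 without knockdown replicate 1. Length and GC correction gave -0.31. TWIST2 had 3, 0 and 0 counts in the controls and 8, 0 and 0 in the knockdown, so 4 of 6 libraries had none, and no fold change is given.

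CDH1 (ENSG00000039068, chromosome 16, 68737225 to 68835548, plus strand), the gene of E-cadherin, had 25, 41 and 37 counts in controls 1 to 3 and 59, 27 and 51 in knockdown 1 to 3. These correspond to 0.381, 0.723 and 0.616 CPM and to 0.947, 0.422 and 0.781 CPM. Each was above the floor of 3 counts, and the groups overlapped, with the lowest library among the controls and the highest in the knockdown. The log2 fold change was 0.32 (SE 0.485, edgeR adjusted p = 0.815), with a fold interval of 0.597 to 2.62, so the interval includes a 2-fold rise. This log2 change was 0.07 without knockdown replicate 1, 0.10 without control replicate 1, 0.52 without control replicate 2 and 0.59 without knockdown replicate 2. The summed level of 7 other epithelial markers, of which 2 reached 1 CPM, was 11.9 to 17.2 CPM in the controls and 8.20 to 9.28 CPM in the knockdown. CLDN4 made up most of it, and its part in the CDH1 values was not tested.

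CDH2 (ENSG00000170558, chromosome 18, 27950966 to 28177446, minus strand), the gene of N-cadherin, was at 68.6, 56.8 and 68.4 CPM in controls 1 to 3 and at 48.9, 62.3 and 55.6 CPM in knockdown 1 to 3. Knockdown 1 and 3 lay below every control, while knockdown 2 lay above control 2. Their means were 64.6 ± 6.75 CPM and 55.6 ± 6.70 CPM (SD over 3 libraries), with a log2 fold change of -0.22 (SE 0.122, edgeR adjusted p = 0.432) and a fold interval of 0.714 to 1.04. This log2 change was -0.13 without knockdown replicate 1 and -0.14 with the length and GC correction. Within each library the log2 ratio of CDH2 to CDH1 counts, with 0.5 added to each, was 7.46, 6.28 and 6.77 in the controls and 5.68, 7.18 and 6.14 in the knockdown. CDH2 was the more abundant cadherin in all 6 libraries, and the ratios of the groups overlapped.

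VIM (ENSG00000026025, chromosome 10, 17228259 to 17237593, plus strand) encodes the intermediate filament protein of mesenchymal and glial cells, and its mean CPM was above that of 99.9% of all genes tested. It was at 4334, 4276 and 4842 CPM in controls 1 to 3 and at 3648, 3955 and 3433 CPM in knockdown 1 to 3. The highest knockdown library lay below the lowest control. Group means were 4484 ± 311 and 3679 ± 262 CPM (SD over 3 libraries), with a log2 fold change of -0.29 (SE 0.0976) and a fold interval of 0.707 to 0.952. The unadjusted edgeR p was 0.0137 and the adjusted p 0.200, so the gene was not called. In bulk libraries a lower level can come from fewer cells that hold the transcript or from less of it per cell, and these cannot be told apart. VIM was the only 1 of the 8 tested members whose groups did not overlap, where 21.6% of all genes tested did not overlap (10.6% with the knockdown lower), and the only 1 of the 8 with an unadjusted p under 0.05, where 15.6% of all genes had one (7.43% lower and 8.15% higher). DESeq2 and limma-voom called none of the 8 either, with adjusted p for VIM of 0.0746 and 0.166. The log2 fold change of VIM lay between -0.34 and -0.23 when single libraries were left out. With the length and GC correction it was -0.25 (edgeR adjusted p = 0.113).

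FN1 (ENSG00000115414, chromosome 2, 215360440 to 215436172, minus strand) encodes fibronectin, a matrix glycoprotein bound by integrins. It was at 70.3, 71.8 and 86.3 CPM in controls 1 to 3 and at 56.8, 79.7 and 70.7 CPM in knockdown 1 to 3. Control 3 was highest and knockdown 1 lowest, and the other 4 libraries overlapped. The log2 fold change was -0.14 (SE 0.136, edgeR adjusted p = 0.681, fold interval 0.737 to 1.12). It was -0.02 without knockdown replicate 1, -0.04 without control replicate 3 and -0.26 without knockdown replicate 2. With the length and GC correction it was -0.11 (edgeR adjusted p = 0.730).

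**Figure D3:**
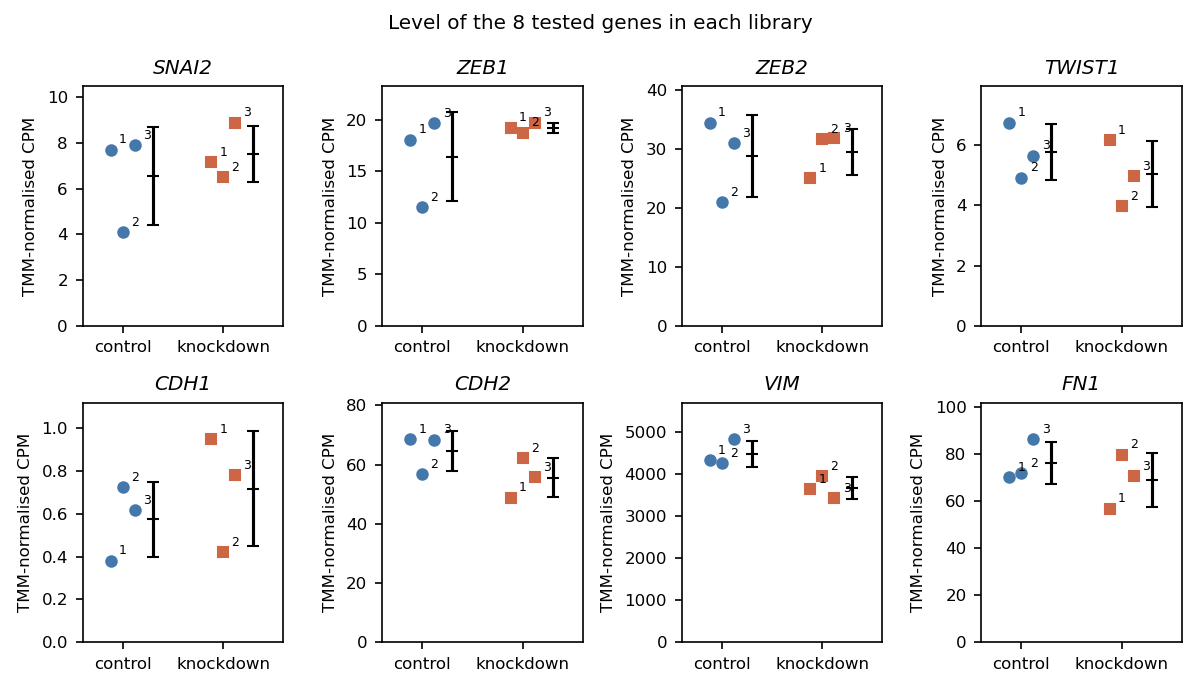
TMM-normalised CPM of the 8 tested genes in 3 control (circles) and 3 knockdown (squares) libraries, numbered by replicate, with mean ± SD beside each group; each axis starts at 0. Only for VIM do the groups not overlap, and control 2 is the lowest point for SNAI2, ZEB1 and ZEB2.

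**Figure D4:**
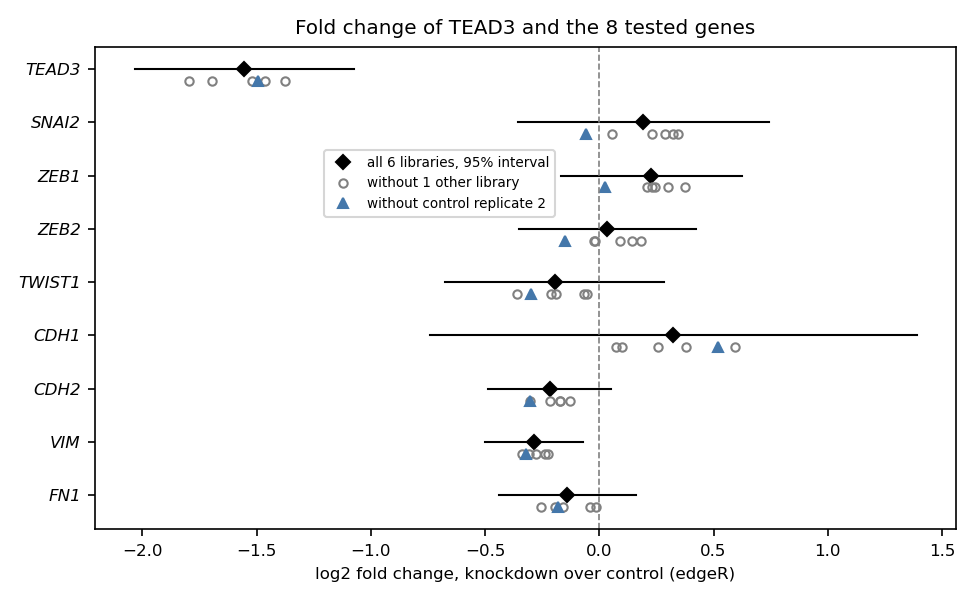
Log2 fold change (knockdown over control, edgeR) of TEAD3 and the 8 tested genes with 95% intervals (diamonds and lines), and the value when 1 library was left out (triangles, control replicate 2; circles, each other library). The intervals of TEAD3 and VIM lie below 0 and those of the other 7 genes include 0.

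Over the 8 tested genes 4 log2 fold changes were above 0 and 4 below. Their median was -0.05, against a median of -0.0012 over all genes tested. The profile over the 6 libraries was nearest, by root mean square difference of centred log2 CPM, to AGK for CDH2 (0.0312), CXXC5 for VIM (0.0313), BAIAP2L1 for FN1 (0.0388), SLC12A2 for ZEB1 (0.0396), PAPOLG for ZEB2 (0.0702), MBTD1 for TWIST1 (0.0701), EEA1 for SNAI2 (0.0714) and the pseudogene RPL21P16 for CDH1 (0.183). These distances over 6 libraries also hold what the libraries share, such as depth and base composition. Exons of VIM overlap VIM-AS1 and a further gene on the opposite strand over 1260 bases. VIM-AS1 was at 0.910 ± 0.644 CPM in controls against 1.16 ± 0.419 CPM after knockdown (log2 fold change 0.35, edgeR adjusted p = 0.803). With single libraries left out its log2 fold change lay between 0.028 (without control replicate 2) and 1.09 (without control replicate 3). Exons of ZEB1 overlap ZEB1-AS1 on the opposite strand over 366 bases, and ZEB1-AS1 was at 4.21 ± 0.400 and 5.07 ± 0.650 CPM (0.27, edgeR adjusted p = 0.562). ZEB2, TWIST1, CDH1 and CDH2 also overlap opposite-strand genes, over 1322, 141, 347 and 136 bases, and the strand setting of the counting is not given in the sources used here, so reads in those bases are uncertain.

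Of 126 further genes in 11 lists, 124 were in the count table and 103 were tested. The lists hold genes of the pathway and, in 1 list, antisense and neighbouring transcripts. ID4 and FBN1 rose, and the other 101 were not called in either direction. Over all genes 0.451% were called higher and 0.203% lower. A nominal p (unadjusted, under 0.05) was found for 12 genes above 0 and 14 below, where 8.15% and 7.43% of all genes tested had one. DESeq2 called 9 higher and 3 lower, where it called 3.13% of all its genes higher and 2.31% lower. Without control replicate 2 edgeR called 5 higher and 4 lower in these lists, where it called 1.4% of all genes higher and 1.78% lower. The median log2 fold change of the 103 was -0.08. These lists were chosen with earlier results of these data known. Shares of a list set beside those of all genes, here and below, are therefore descriptions and not evidence of enrichment.

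Inhibitors and partners of TWIST-type factors held 1 of the 2 calls. ID proteins lack a DNA-binding region and sequester the E proteins that TWIST factors pair with. ID4 was at 7.47, 4.79 and 7.48 CPM in controls 1 to 3 and at 16.1, 10.99 and 15.9 CPM in the knockdown (log2 fold change 1.12, SE 0.215, edgeR adjusted p = 0.0470). Every knockdown library of ID4 lay above every control. ID1, ID2 and ID3, named after their values were seen, also lay higher in every knockdown library than in every control, as did 11% of all genes tested. None of them was called by edgeR. ID1 was at 218 ± 19.8 and 293 ± 26.4 CPM (0.43, edgeR adjusted p = 0.102), ID2 at 61.6 ± 15.3 and 79.4 ± 1.39 CPM (0.37, 0.304) and ID3 at 263 ± 21.99 and 329 ± 21.4 CPM (0.33, 0.165). Correction for length and GC content left ID1 at 0.25 and ID3 at 0.17, and without control replicate 2 ID2 was at 0.18. DESeq2 called 3 genes of this list of 7 higher, ID4, ID1 and ID3, against 3.13% of all its genes. The list median was 0.33. The ID4 call was lost without control replicate 1 or 3 or knockdown replicate 1 or 3 (edgeR adjusted p of 0.0940, 0.132, 0.215 and 0.278). None of the E protein genes TCF3, TCF4 and TCF12 was called. TCF3 lay lower in every knockdown library than in every control (-0.21, edgeR adjusted p = 0.413), as did 10.6% of all genes tested.

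Of 14 fibronectin receptor and matrix partner genes, 1 rose and 13 were not called, with a list median of 0.24. A nominal p was found for 4, all above 0, where 8.15% of all genes tested had one in that direction. Groups did not overlap for 7 of the 14, against 21.6% of all genes tested. This list too was chosen with earlier results known, so the share is description only. DESeq2 called 3 higher, against 3.13% of all its genes, and edgeR without control replicate 2 called 3 higher, against 1.4%. FBN1, which encodes the microfibril protein fibrillin, was at 17.3, 17.4 and 14.8 CPM in controls 1 to 3 and at 27.6, 25.2 and 34.1 CPM in the knockdown (log2 fold change 0.81, SE 0.142, edgeR adjusted p = 0.0312). The groups of FBN1 did not overlap. Its call was lost without control replicate 1 or 3 or knockdown replicate 1 or 3 (edgeR adjusted p of 0.0825, 0.155, 0.130 and 0.227), and with the replicate number as a block (0.104). ITGA5, the partner of ITGB1 in the main fibronectin receptor, went uncalled at 180 ± 40.6 and 266 ± 31.7 CPM (0.56, edgeR adjusted p = 0.126), and it was called without control replicate 2 (0.75, 0.0262), after length and GC correction (0.64, 0.0223) and by DESeq2 (0.00575).

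No gene of the other 9 lists was called by edgeR with all 6 libraries and no correction for length and GC content. Of 9 other transcription factor genes linked to the transition, 1 had a nominal p, above 0, and none was called by DESeq2. PRRX1, a homeobox gene, was at 64.9 ± 4.45 and 75.6 ± 2.10 CPM (log2 change 0.22, edgeR adjusted p = 0.310), and SOX4 at 83.2 ± 1.34 and 79.8 ± 12.5 CPM (-0.06, 0.867). Of 12 corepressor and cofactor genes of SNAI and ZEB proteins, 5 had a nominal p, all below 0, where 7.43% of all genes tested had one in that direction. DESeq2 called 1 of them lower, SIN3A, a histone deacetylase scaffold (50.4 ± 3.85 and 38.6 ± 3.32 CPM, -0.39, edgeR adjusted p = 0.143). LOXL2, a Snail-binding lysyl oxidase, was the most abundant of them at 429 ± 46.9 and 496 ± 36.5 CPM (0.21, edgeR adjusted p = 0.381). Without control replicate 2 edgeR called 1 of these 12 genes lower, against 1.78% of all genes. It was not SIN3A (edgeR adjusted p = 0.0570 in that fit). Of 8 genes that act on the stability of SNAI and TWIST proteins, 1 had a nominal p, below 0. It was MDM2, an E3 ligase (53.7 ± 9.06 and 41.6 ± 1.92 CPM, -0.37, edgeR adjusted p = 0.215), which was called without control replicate 2 (-0.50, 0.0275). CSNK2A1, a kinase subunit, was at 110 ± 2.19 and 96.8 ± 4.40 CPM (-0.19, edgeR adjusted p = 0.346). DESeq2 called none of these 8.

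All 5 tested genes of the catenin complex had log2 fold changes below 0, where 50.2% of all genes did. Of these 5, 2 had a nominal p and none was called by DESeq2. Without control replicate 2 edgeR called 1 of them lower, against 1.78% of all genes. VCL, which links the complex to actin, was at 176 ± 10.9 and 137 ± 22.3 CPM (log2 change -0.36, edgeR adjusted p = 0.198), and CTNNA1, alpha-catenin, at 393 ± 18.8 and 360 ± 14.7 CPM (-0.13, 0.556; -0.04 with the length and GC correction). Of 17 other cadherin genes 9 were tested, none of them with a nominal p or called by DESeq2. CDH11 was the most abundant at 56.2 ± 2.76 and 56.0 ± 4.06 CPM (-0.01, edgeR adjusted p = 0.991), and CDH6 had the smallest p (5.03 ± 1.15 and 3.57 ± 0.750 CPM, -0.49, 0.353). Of 23 epithelial genes repressed by SNAI and ZEB factors 17 were tested, with a median of -0.14. A nominal p was found for 1 above and 2 below 0. DESeq2 called 1 higher and 1 lower. CLDN4, a tight junction claudin, was at 12.01 ± 2.98 and 6.86 ± 0.422 CPM (-0.81, edgeR adjusted p = 0.0903), called by DESeq2 (adjusted p = 0.00491) and with the length and GC correction (-0.75, edgeR adjusted p = 0.0399). TJP1, a junction scaffold, was at 156 ± 26.1 and 132 ± 9.53 CPM (-0.24, edgeR adjusted p = 0.399).

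Of 10 other intermediate filament and linker genes tested, a nominal p was found for 1 above and 3 below 0. DESeq2 called 1 higher and 1 lower. LMNB1, a nuclear lamin, was at 93.3 ± 10.7 and 69.9 ± 4.69 CPM (log2 change -0.42, edgeR adjusted p = 0.121), called by DESeq2 (adjusted p = 0.0180) and without control replicate 2 (-0.50, edgeR adjusted p = 0.0316). LMNA was the most abundant by its mean over all 6 libraries, at 515 ± 69.2 and 479 ± 3.96 CPM (-0.10, edgeR adjusted p = 0.701). GFAP, the astrocyte filament gene, named after its values were seen, was at 1.46 ± 0.298 and 0.572 ± 0.212 CPM (-1.34, edgeR adjusted p = 0.143). Of 10 other mesenchymal markers tested, none was called by edgeR with all 6 libraries and no correction for length and GC content. A nominal p was found for 1 above and 1 below 0. DESeq2 called 1 of them higher, against 3.13% of all its genes. Without control replicate 2 edgeR also called 1 higher, against 1.4% of all genes. SPARC, a matricellular protein gene, was the most abundant of these markers. It was at 2431 ± 58.9 and 2408 ± 77.9 CPM (-0.01, edgeR adjusted p = 0.970).

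**Figure D5:**
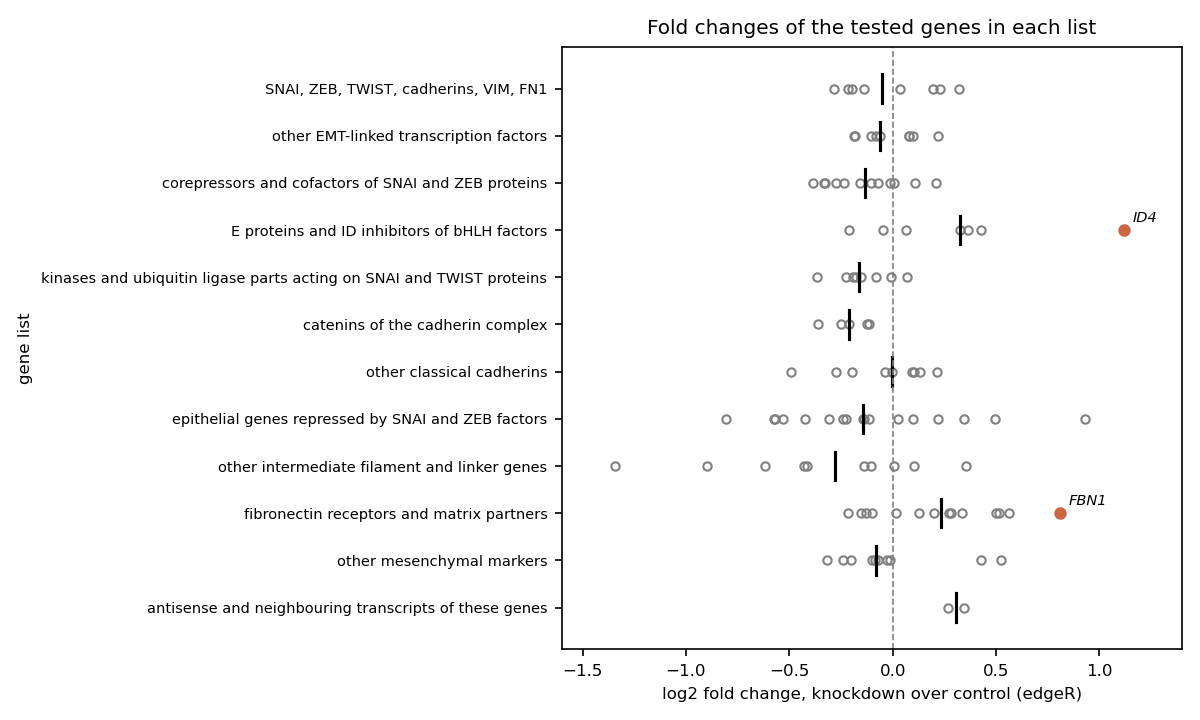
Log2 fold change (knockdown over control, edgeR) of each tested gene in the member list and the 11 further lists, with list medians as bars; filled points passed an adjusted p under 0.05. Only ID4 and FBN1 are filled, and the points of most lists lie on both sides of 0.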

How the data were processed

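Polyadenylated RNA libraries of 3 control and 3 knockdown samples were analysed, grouped by their titles. The deposited values are counts per gene, whole numbers that the authors left unscaled. The submitters' processing notes name cutadapt 1.9, HISAT2 2.0.4 and StringTie 1.3.4d, then DESeq2 and edgeR, on build GRCh38. The counting tool, annotation and strand setting were not stated there, so overlapping genes are uncertain.

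Counts were fitted in R 4.3.3 with edgeR 4.0.16 (TMM scaling, filterByExpr with a minimum of 10 counts, quasi-likelihood F test, two-sided, group as the only term), which left 17723 of 29520 genes with at least 1 count. DESeq2 1.42.0 and limma-voom (limma 3.58.1) were alternatives, with other scalings, filters and dispersions, a replicate block, a loess correction for length and GC content (span 0.3) and each library left out. Levels are TMM-normalised CPM. Symbols, lengths and overlaps came from GENCODE 29. Data were simulated with 200 changed genes above 5 CPM among 17258, each gene drawn independently. On these edgeR recovered 50.7% of 1.5-fold, 85.1% of 2-fold and 100% of 4-fold changes, with 4 false calls among 161. Dispersions came from the fitted trend, and no shift by GC content or length was drawn. The shares therefore need not hold for the real libraries, nor for CDH1, which lay below 5 CPM.

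Members and lists were chosen with earlier results of these data known. Genes named beyond them are the called genes of each list (up to 3 by adjusted p), or else the one with the smallest p and the most abundant one. For each tested member the nearest profile among genes whose mean log2 CPM was 3 or more is named as well. Those named after their values were seen are ID1, ID2, ID3, TCF3, ITGA5, VIM-AS1 and GFAP. Values of 2 further genes in these lists are not reported here.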

Additional observations from a re-analysis of the deposited data

How the results depend on the processing

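None of the 8 tested members was called by edgeR under any alternative run, nor by DESeq2 or limma-voom; VIM was not in the fit without the 10 most abundant genes and CDH1 not in that with the stricter filter. VIM, CDH2, FN1, TWIST1, ZEB1 and CDH1 kept the sign of their fold changes in every alternative that held them. With single libraries left out the log2 fold change of SNAI2 lay between -0.057 and 0.35 and that of ZEB2 between -0.15 and 0.18. The same fits gave -0.19 to 0.030 for SOX4, -0.048 to 0.055 for CDH11, -0.19 to 0.0019 for LMNA and -0.040 to 0.0043 for SPARC. Correction for length and GC content turned SOX4 to 0.040, CDH11 to 0.051 and SPARC to 0.066, and CDH11 was also above 0 with upper-quartile scaling (0.0032) and by DESeq2 (0.00071). TEAD3 was not called with no filter on low counts (-1.56) or at an adjusted p under 0.01 (-1.55), and lay between -1.80 and -1.37 with single libraries left out.

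Over all genes 116 were called, 80 higher and 36 lower. There were 31 with no filter, 825 by DESeq2, 27 at an adjusted p under 0.01, 197 under robust estimation of dispersions, 449 after correction for length and GC content (223 higher and 226 lower), and 20 to 589 with single libraries left out, the last without control replicate 2. The 2 calls in the further lists became 1 with library size alone, 0 with no filter and at an adjusted p under 0.01, 12 by DESeq2, 8 after the correction, and 0 to 9 with single libraries left out. With the replicate number as a replicate block 63 genes were called over all and 1 in the further lists. Deviations of same-numbered libraries from their group means correlated at 0.0031, -0.0041 and 0.0097. Values near 0 cannot tell whether such libraries shared a culture or a batch, and the labels do not state a pairing. The cause of the changes in the number of calls was not tested.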
